A study of Homo sapiens with 9 samples.

Results

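The lysosomal gene set described here holds 51 genes, taken from a list of names. That list was chosen with earlier results of these data known, so the set as a whole is described and not tested. It comprises 15 subunits of the vacuolar proton pump (V-ATPase), 10 proteases (the cathepsins and TPP1), 17 hydrolases, 3 soluble proteins that are not enzymes themselves and 6 membrane proteins. These 51 are among 14971 genes that could be named in at least 1 library. Transcripts were measured by poly-A selected RNA sequencing in WM3248, a single established human melanoma line grown in low-serum medium with bovine insulin. ARN22089 is a small molecule made to block the binding of CDC42 family GTPases to their effectors. The groups were the vehicle (DMSO, 0 µM), 4 µM and 6 µM ARN22089, each for 24 h and each with 3 libraries. The descriptions do not state separate cultures for the libraries of a dose, and p-values here therefore describe the spread among these libraries only.

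Lysosomes are acidic organelles in which proteins, glycans and lipids are taken apart. The V-ATPase keeps them acidic: its V1 sector splits ATP in the cytosol and its V0 sector carries protons through the membrane. Proteases and hydrolases work in the lumen at low pH, and heavily glycosylated membrane proteins line the inner face. Many of these genes carry an E-box-like element that the transcription factors TFEB, TFE3 and MITF bind, and MITF is also the lineage factor of melanocytes, whose melanosomes are relatives of the lysosome.

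Promoter sequences (250 bases before to 50 after the start, RefSeq, GRCh38.p14) were found for 36 of the 51 genes. The motifs searched on both strands were CACGTG, its extension TCACGTGA, which always contains CACGTG, and TCATGTG, whose reverse complement is CACATGA. Of the 36 promoters, 13 held CACGTG (36.1%), against 7.43% of all 27305 promoters in the table. TCACGTGA was in 8 (22.2%, against 1.04% of all promoters) and TCATGTG in 6 (16.7%, against 2.99%). A match is a run of letters only and says nothing of binding. The following 5 are shown 5′ to 3′ with each copy of CACGTG and of TCATGTG, on either strand, in capitals. CTSD, CTSF, TPP1 and GRN are the 4 members that passed an adjusted test in any of the fits described here. They did so in a fit chosen after the data were seen, and their calls rest on single libraries, as described below. LAMP1 has the most CACGTG copies among the 36, and its difference was near 0. In order, they lie at chr11:1763878-1764177 (minus strand), chr11:66568557-66568856 (minus), chr11:6619373-6619672 (minus), chr17:44345052-44345351 (plus) and chr13:113296989-113297288 (plus).
CTSD: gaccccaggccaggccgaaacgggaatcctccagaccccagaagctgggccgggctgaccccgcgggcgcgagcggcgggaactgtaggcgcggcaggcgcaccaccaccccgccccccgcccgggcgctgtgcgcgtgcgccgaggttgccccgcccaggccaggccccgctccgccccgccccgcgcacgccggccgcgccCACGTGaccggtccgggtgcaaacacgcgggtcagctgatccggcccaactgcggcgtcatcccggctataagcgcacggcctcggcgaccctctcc
CTSF: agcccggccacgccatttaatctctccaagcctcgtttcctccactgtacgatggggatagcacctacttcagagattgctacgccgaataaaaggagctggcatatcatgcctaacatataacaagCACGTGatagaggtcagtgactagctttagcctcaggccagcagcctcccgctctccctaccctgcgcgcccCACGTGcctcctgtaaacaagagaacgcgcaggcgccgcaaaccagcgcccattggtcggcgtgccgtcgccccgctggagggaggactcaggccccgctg
TPP1: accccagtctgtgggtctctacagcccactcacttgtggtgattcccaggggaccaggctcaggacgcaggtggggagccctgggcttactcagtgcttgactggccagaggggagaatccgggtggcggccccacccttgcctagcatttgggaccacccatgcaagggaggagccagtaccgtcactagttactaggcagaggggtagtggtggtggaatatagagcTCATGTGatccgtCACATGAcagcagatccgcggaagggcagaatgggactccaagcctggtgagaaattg
GRN: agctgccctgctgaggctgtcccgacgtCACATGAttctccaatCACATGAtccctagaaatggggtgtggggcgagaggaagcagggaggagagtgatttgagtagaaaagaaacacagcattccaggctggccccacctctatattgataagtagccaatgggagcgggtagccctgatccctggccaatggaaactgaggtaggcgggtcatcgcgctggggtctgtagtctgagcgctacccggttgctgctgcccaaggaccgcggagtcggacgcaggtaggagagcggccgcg
LAMP1: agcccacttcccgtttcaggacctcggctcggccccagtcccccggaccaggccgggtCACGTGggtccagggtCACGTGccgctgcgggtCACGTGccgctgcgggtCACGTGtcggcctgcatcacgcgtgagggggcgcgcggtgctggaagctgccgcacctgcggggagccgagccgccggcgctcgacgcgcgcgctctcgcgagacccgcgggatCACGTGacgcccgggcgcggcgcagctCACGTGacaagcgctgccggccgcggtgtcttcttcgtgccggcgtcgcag
The CTSD promoter holds 1 CACGTG, starting 47 bases before the transcription start, and the CTSF promoter holds 2. TPP1 and GRN hold no CACGTG but 2 copies of TCATGTG each. LAMP1 holds 6 CACGTG, of which 2 are within TCACGTGA.

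Each library was assembled on its own, into between 26506 and 30798 transcripts, and between 12100 and 12821 genes could be named in it. The depth in reads is unknown, and relative depth ran from 0.802 to 1.343 of the median library. A gene's level is its summed FPKM, the FPKM (fragments per kilobase, scaled to the library) of its assembled transcripts added together, which is a per-length scale. A second value, the consensus exon value, averages FPKM along those exonic bases that were shared by at least 50% of the libraries that assembled the gene. It counts every transcript on the gene's strand, or without a strand, that covers those bases, also one not named as that gene. It was meant to depend less on short or missing assemblies, but was more scattered for some genes, such as NAGLU. Both values are plotted for all 51 genes, and a value in the text is summed FPKM unless the consensus exon value is named. Differences are log2 differences of FPKM + 1 with their SE, and adjusted p-values are from limma over all 12345 genes tested, with a threshold of 0.05.

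All 51 genes had a mean of at least 1 FPKM and were tested, and 50 of them were assembled in every library. The mean over the 9 libraries ran from 5.55 FPKM for CTSS to 821 FPKM for CD63, with a median of 64.6 FPKM. By consensus exon value it ran from 3.26 FPKM for IDUA to 509 FPKM for PSAP. The summed level of the 51 genes was 4415, 4001 and 4024 FPKM in the 3 libraries at 0 µM, 5316, 5536 and 4406 FPKM at 4 µM, and 5741, 5939 and 4535 FPKM at 6 µM. Libraries of replicate 3 had the lowest sum at 4 and at 6 µM, and that at 4 µM lay below the highest vehicle library. CD63 alone, whose libraries were scattered, had a mean of 554 FPKM at 0 µM and 1079 FPKM at 6 µM. By consensus exon value the sums of the 51 genes were 3633.0, 3671.5 and 3362.2 FPKM at 0 µM. At 4 µM they were 4392.2, 4573.2 and 3836.0 FPKM, and at 6 µM 4502.4, 4497.5 and 3926.5 FPKM. In bulk RNA, more cells of a kind and more RNA per cell cannot be told apart.

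At 6 µM against 0 µM, no member passed the adjusted threshold, where 39 of 12345 genes did (0.316%). The lowest adjusted p among the members was 0.127 (limma). The differences nevertheless leaned one way. The fitted difference was positive for 41 of the 51 members, against 46.4% of all genes tested, and its median was 0.27, against -0.03 for all genes. At an unadjusted p below 0.05, 10 members were higher (19.6% of the members, 8.11% of all genes) and 1 was lower (1.96% of the members, 9.66% of all genes). These values depend on single libraries. With 1 library left out, the median ran from 0.16 (without replicate 3 at 0 µM) to 0.33, the positive members numbered 38 to 42, and those higher at an unadjusted p below 0.05 numbered 5 (without replicate 1 at 6 µM) to 15 (without replicate 1 at 0 µM). For 11 members (21.6%) every library at 6 µM lay above every library at 0 µM, against 10.9% of all genes. For 2 (3.92%) every one lay below, against 14.0%. All 3 same-numbered pairs were positive for 23 members (45.1%), against 18.7% of all genes, and all 3 were negative for 4 (7.84%), against 23.0%.

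At 4 µM against 0 µM, which uses the same vehicle libraries, the members gave a like count. None passed the adjusted threshold (lowest adjusted p = 0.278, limma), where 11 of 12345 genes did (0.0891%). The difference was positive for 39 members, against 49.6% of all genes, with a median of 0.18, against -0.00 for all genes. At an unadjusted p below 0.05, 9 were higher (17.6%, against 6.25% of all genes) and 0 were lower (4.58% of all genes). At that level 2 were higher when replicate 1 at 4 µM was left out, and 3 when the library left out was replicate 2 at 4 µM or the third vehicle library. With 1 library left out the median ran from 0.13 to 0.27 and the positive members numbered 35 to 43. For 10 members (19.6%) every library at 4 µM lay above every library at 0 µM, against 9.95% of all genes. For 1 (1.96%) every one lay below, against 8.39%. All 3 same-numbered pairs were positive for 22 members, against 18.7% of all genes, and negative for 1, against 17.1%. With the consensus exon value the medians were 0.24 at 4 µM and 0.25 at 6 µM. With it, 44 members were positive at 4 µM (47.9% of all genes) and 43 at 6 µM (43.9% of all genes), and none passed the adjusted threshold, where 0.0899% and 4.33% of all genes did.

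**Figure D1:**
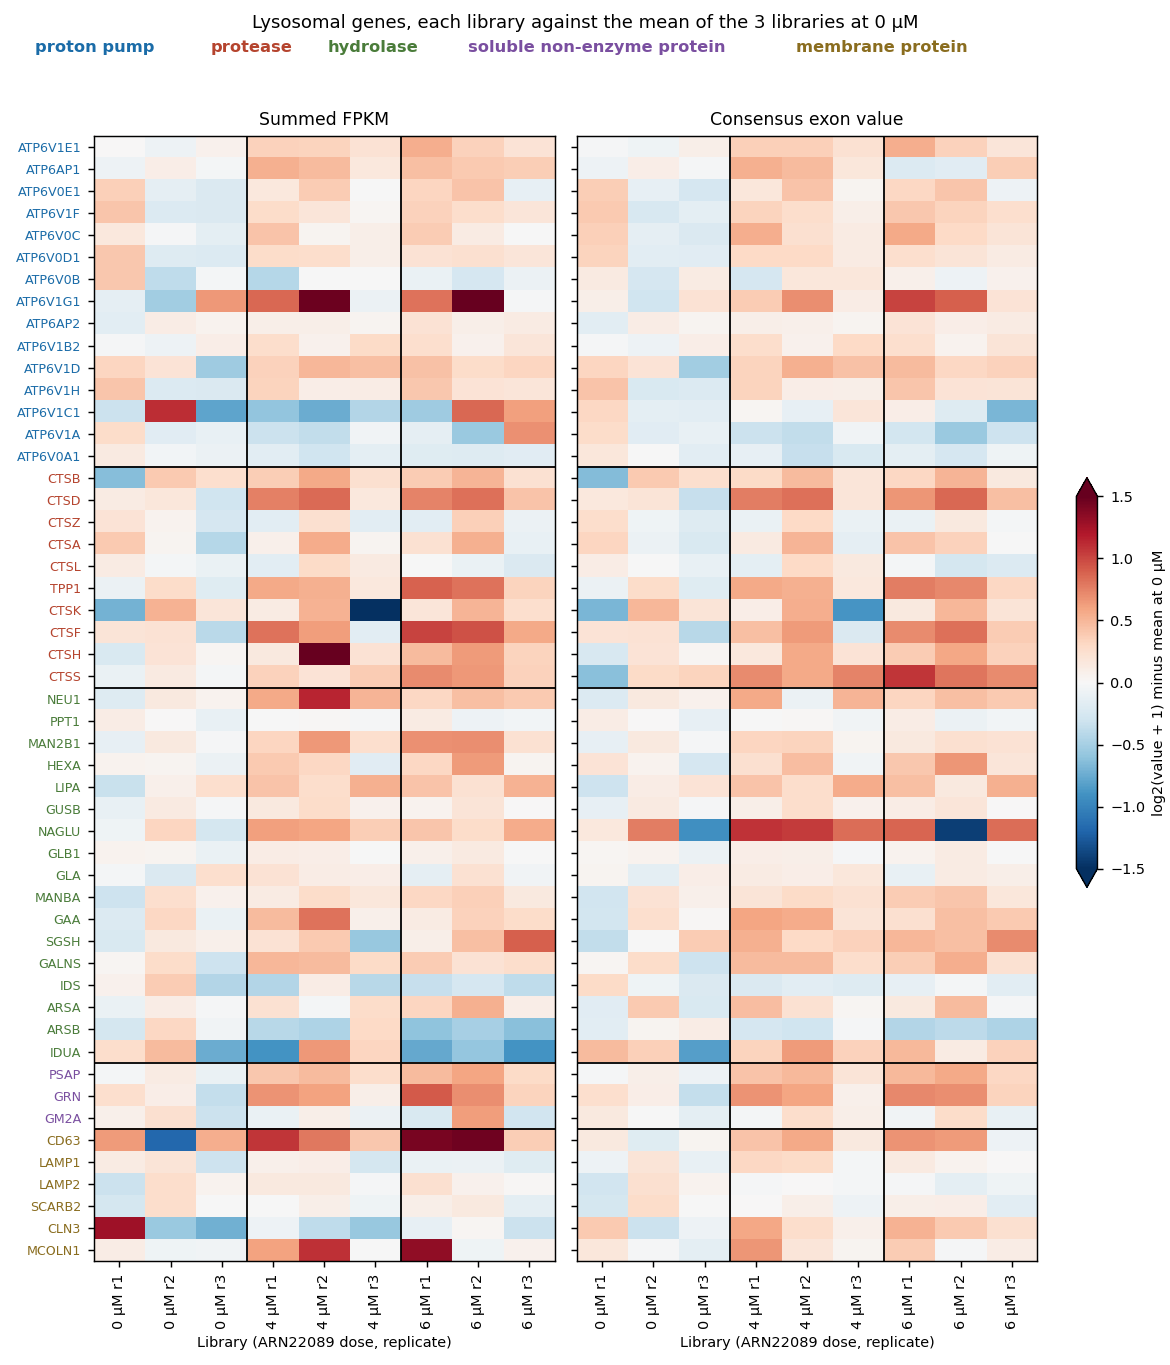
Each of the 51 genes (rows, grouped by class and ordered by level) in each of the 9 libraries (columns), as log2(value + 1) minus the mean of the 3 libraries at 0 µM, for the summed FPKM (left) and the consensus exon value (right). Proteases such as CTSD, TPP1 and CTSF and the soluble proteins PSAP and GRN are above the vehicle mean in most treated libraries. Single dark cells on the left, such as CTSK in replicate 3 at 4 µM, are paler on the right, while NAGLU is spread more widely there.

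The median difference of the 15 proton pump genes was 0.18 at 4 µM and 0.22 at 6 µM, with 11 and 12 positive. Summed over the 8 genes of the V1 sector, which splits ATP, the level was 549, 482 and 486 FPKM at 0 µM, 620, 649 and 549 FPKM at 4 µM, and 662, 677 and 583 FPKM at 6 µM. Over the 5 genes of the V0 sector, which holds the proton channel, it was 494, 352 and 354 FPKM at 0 µM, 433, 444 and 402 FPKM at 4 µM, and 457, 441 and 387 FPKM at 6 µM. The V1 sums at 6 µM all lay above those at 0 µM, while the V0 sums overlapped between doses. Much of the V1 rise, from a mean of 505.5 to 640.4 FPKM, lay in 2 genes. ATP6V1E1 went from 148.9 to 193.0 FPKM and the scattered ATP6V1G1 from 51.2 to 90.7 FPKM. Taken singly, 1 of the 8 V1 genes lay above the vehicle without overlap at 6 µM (12.5%, against 10.9% of all genes). A difference between the sectors was not tested. By consensus exon value the V1 sums barely separated, with a lowest of 534 FPKM at 6 µM and a highest of 532 FPKM at 0 µM. The V0 sums again overlapped.

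ATP6V1E1, a stalk subunit of V1 (chromosome 22, 17592136 to 17628822, minus strand), had 150, 141 and 156 FPKM at 0 µM, 190, 188 and 173 FPKM at 4 µM, and 218, 190 and 171 FPKM at 6 µM. The treated libraries all lay above the vehicle libraries, by 0.30 ± 0.13 at 4 µM (adjusted p = 0.452, limma) and 0.37 ± 0.13 at 6 µM (adjusted p = 0.206). ATP6AP1, an accessory protein of the pump needed for its assembly, had 105, 118 and 108 FPKM at 0 µM, 160, 154 and 124 FPKM at 4 µM, and 151, 145 and 142 FPKM at 6 µM. Its summed values at 6 µM did not overlap those of the vehicle, with a difference of 0.41 ± 0.13 (adjusted p = 0.182, limma). Its consensus exon value did overlap, at 95.7, 98.1 and 142 FPKM at 6 µM against 104, 118 and 108 FPKM at 0 µM, a difference of 0.00 ± 0.18.

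The other 13 pump genes had differences at 6 µM between -0.19 and 0.77. ATP6V0A1, the largest V0 subunit, was lowest by summed FPKM, with 16.3, 16.1 and 16.4 FPKM at 6 µM against 20.6, 18.0 and 17.4 FPKM at 0 µM, and these did not overlap. With the consensus exon value they did, and the difference was -0.15. ATP6V1G1, another stalk subunit, was highest but scattered, with 85.5, 139 and 47.5 FPKM at 6 µM against 44.0, 33.3 and 76.2 FPKM at 0 µM. The consensus exon values of ATP6V1G1 were 84.3, 77.1 and 47.5 FPKM at 6 µM against 43.6, 33.3 and 47.9 FPKM at 0 µM, which still overlapped (0.70 ± 0.25, limma adjusted p = 0.134). These genes, like all members named beyond the 16 whose values are plotted by library, were chosen after their values were seen. The catalytic subunit ATP6V1A differed by -0.00 ± 0.30 at 6 µM by summed FPKM and by -0.38 ± 0.16 by consensus exon value (limma adjusted p = 0.175).

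**Figure D2:**
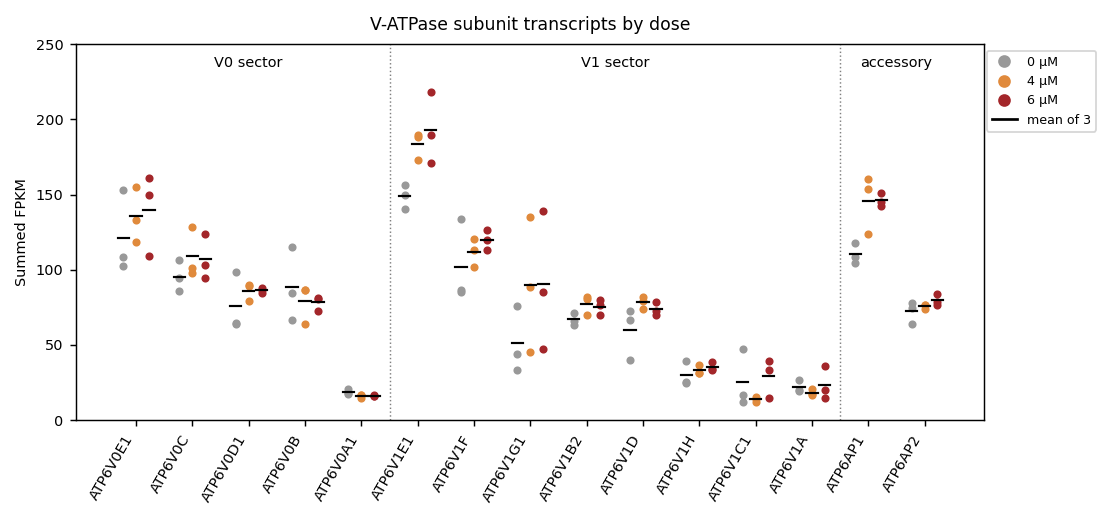
Summed FPKM (vertical axis) of the 15 proton pump genes at 0, 4 and 6 µM, with a point per library and a line at the mean of 3. ATP6V1E1 and ATP6AP1 are the genes whose treated libraries all sit above the vehicle libraries at both doses, and most other genes overlap.

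Proteases had a median difference of 0.35 at 4 µM and 0.43 at 6 µM. Of the 10, 8 were positive at 4 µM and 9 at 6 µM. For 5 (50.0%) the libraries at 6 µM all lay above those at 0 µM, against 10.9% of all genes. CTSD, the main aspartic protease of the lysosome, had 177, 182 and 132 FPKM at 0 µM, 273, 292 and 181 FPKM at 4 µM, and 271, 288 and 218 FPKM at 6 µM. Replicate 3 was the lowest library at each dose. The difference was 0.58 ± 0.22 at 4 µM (adjusted p = 0.412, limma) and 0.67 ± 0.22 at 6 µM (adjusted p = 0.184), and all 3 same-numbered pairs were positive at both doses, between 0.45 and 0.73.

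CTSF, a cysteine cathepsin, was a much less abundant transcript, and replicate 3 was again the lowest library at each dose. It had 15.1, 15.4 and 9.67 FPKM at 0 µM, 23.9, 20.7 and 11.6 FPKM at 4 µM, and 27.5, 26.4 and 20.0 FPKM at 6 µM. The difference at 6 µM was 0.85 ± 0.29 (adjusted p = 0.187, limma), and 0.64 ± 0.26 with the consensus exon value. At 4 µM the groups overlapped, with a difference of 0.43 ± 0.29.

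TPP1, a serine protease that removes tripeptides and is mutated in a childhood neuronal ceroid lipofuscinosis, had 48.1, 62.3 and 45.0 FPKM at 0 µM, 76.6, 74.8 and 57.3 FPKM at 4 µM, and 95.9, 91.2 and 65.1 FPKM at 6 µM. All libraries at 6 µM lay above those at 0 µM, with a difference of 0.68 ± 0.21 (adjusted p = 0.151, limma). CTSS, a cathepsin best known from antigen-presenting cells, had 3.90, 4.76 and 4.15 FPKM at 0 µM, 5.71, 5.08 and 5.83 FPKM at 4 µM, and 7.58, 7.28 and 5.69 FPKM at 6 µM. By summed FPKM it was the least abundant member and had the lowest adjusted p at 6 µM, 0.127 (limma), for a difference of 0.57 ± 0.16. With the consensus exon value its difference was 0.86 ± 0.24. By that value replicate 1 at 0 µM had only 1.65 FPKM, and the same-numbered pairs gave 1.69, 0.52 and 0.38.

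CTSB, an abundant cysteine cathepsin, behaved otherwise. It had 129, 265 and 240 FPKM at 0 µM, 262, 299 and 238 FPKM at 4 µM, and 263, 287 and 237 FPKM at 6 µM. Replicate 1 at 0 µM stood apart from the other 8 libraries, and without it the difference at 6 µM was 0.05 in place of 0.37. The remaining proteases, CTSA, CTSH, CTSK, CTSL and CTSZ, had differences at 6 µM between -0.11 (CTSL) and 0.48 (CTSH). CTSK, known as the collagenase of osteoclasts, was listed at 0 in replicate 3 at 4 µM by summed FPKM. The consensus exon value there was 22.8 FPKM, from transcripts not named as CTSK. Its difference at 4 µM was accordingly -1.61 by summed FPKM and -0.08 by consensus exon value.

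**Figure D3:**
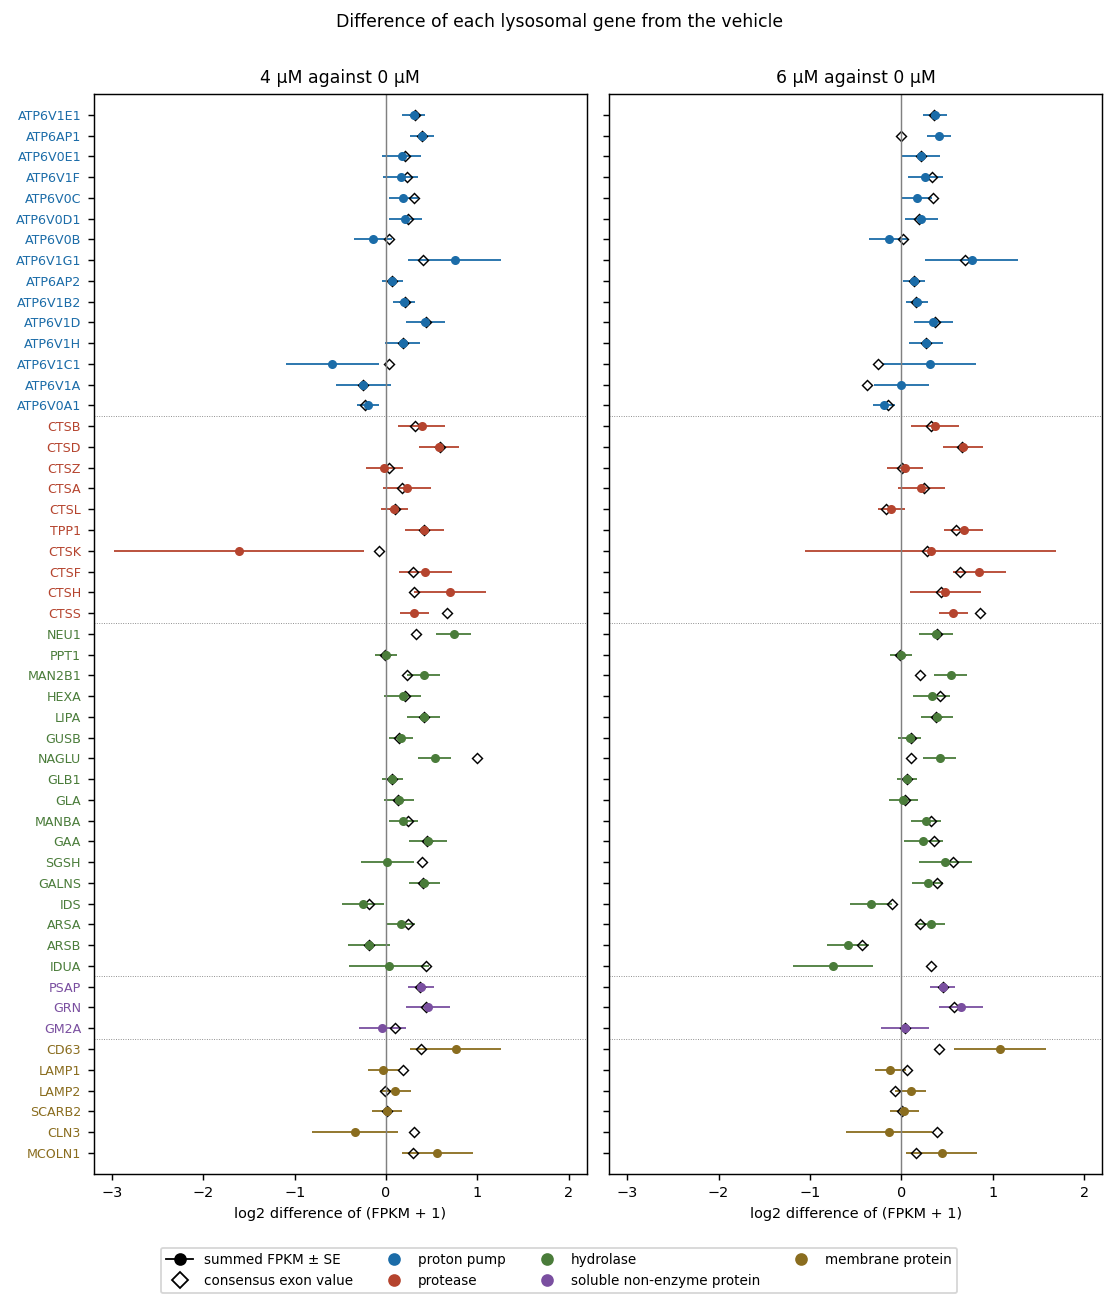
Log2 difference of FPKM + 1 from the vehicle (horizontal axis) for each of the 51 genes at 4 µM (left) and 6 µM (right), as summed FPKM with SE (filled) and as consensus exon value (open diamonds). Most points lie right of 0, and for genes such as CTSK, NAGLU, IDUA and ATP6AP1 both values lie apart.

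The 17 hydrolases, which cut sugars, sulfates, lipids and fatty acyl groups from their substrates, had a median difference of 0.16 at 4 µM and 0.27 at 6 µM. Of these, 14 were positive at 4 µM and 13 at 6 µM. NEU1, the lysosomal sialidase, was the most abundant of them. It had 96.0, 121 and 114 FPKM at 0 µM, 163, 244 and 157 FPKM at 4 µM, and 137, 150 and 144 FPKM at 6 µM. Both treated groups lay above the vehicle, by 0.74 ± 0.19 at 4 µM (adjusted p = 0.278, limma) and 0.38 ± 0.19 at 6 µM (adjusted p = 0.325). With the consensus exon value, replicate 2 at 4 µM had 103 FPKM, the groups at 4 and 0 µM overlapped, and the difference at 4 µM was 0.33 ± 0.19.

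NAGLU, which removes N-acetylglucosamine from heparan sulfate, had 29.2, 38.7 and 25.4 FPKM at 0 µM, 47.6, 46.7 and 39.9 FPKM at 4 µM, and 41.2, 37.4 and 45.6 FPKM at 6 µM. Its libraries at 4 µM all lay above the vehicle and those at 6 µM overlapped it. The difference was 0.53 ± 0.18 at 4 µM (adjusted p = 0.386, limma) and 0.42 ± 0.18 at 6 µM (adjusted p = 0.266), and with the consensus exon value 0.99 ± 0.63 and 0.10 ± 0.63. MAN2B1, the lysosomal alpha-mannosidase, had 46.4, 56.2 and 50.0 FPKM at 0 µM, 63.7, 80.2 and 60.6 FPKM at 4 µM, and 81.9, 83.1 and 59.5 FPKM at 6 µM. By summed FPKM neither dose overlapped the vehicle, with a difference at 6 µM of 0.54 ± 0.18 (adjusted p = 0.182, limma). By consensus exon value the libraries at 4 µM, with 63.7, 64.1 and 52.3 FPKM, overlapped the vehicle, and those at 6 µM stayed above it, by 0.20 ± 0.12.

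ARSB, the arylsulfatase that acts on dermatan sulfate, was among the 4 hydrolases with a negative difference at 6 µM by summed FPKM. It had 9.95, 15.3 and 11.7 FPKM at 0 µM, 8.84, 8.53 and 15.1 FPKM at 4 µM, and 7.63, 8.31 and 7.47 FPKM at 6 µM. All libraries at 6 µM lay below all at 0 µM, by -0.58 ± 0.23 (adjusted p = 0.253, limma), and by -0.43 ± 0.11 when measured by consensus exon value, where its 0.0666 was the lowest adjusted p of any member (limma). PPT1, which removes palmitate from proteins, was flat. It had 106, 99.3 and 91.0 FPKM at 0 µM, 98.3, 99.7 and 97.3 FPKM at 4 µM, and 107, 93.4 and 95.7 FPKM at 6 µM, and its difference at 6 µM was -0.00 ± 0.12.

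The other 12 hydrolases were HEXA, GAA, GLA, GLB1, GUSB, GALNS, IDS, IDUA, ARSA, MANBA, SGSH and LIPA. Their differences at 6 µM ran from -0.75 (IDUA) to 0.48 (SGSH). IDUA, which removes iduronic acid from glycosaminoglycans, had a consensus exon value of 26.4% of its summed FPKM at 0 µM and 62.3% at 6 µM, and its difference at 6 µM was 0.32 with that value. GALNS, a sulfatase for keratan sulfate, and LIPA, the acid lipase that frees cholesterol from its esters, had libraries at 4 µM that all lay above the vehicle, with differences of 0.42 ± 0.17 and 0.41 ± 0.18. LIPA, measured by consensus exon value, still did not overlap, while the lowest GALNS library at 4 µM, with 16.6 FPKM, lay below the highest vehicle library, with 16.8 FPKM.

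Of the 3 soluble proteins, PSAP and GRN were higher in every same-numbered pair at both doses. PSAP, the precursor of the saposins that present lipids to hydrolases (chromosome 10, 71816298 to 71851251, minus strand), had 414, 463 and 396 FPKM at 0 µM, 559, 587 and 509 FPKM at 4 µM, and 588, 639 and 518 FPKM at 6 µM. All 6 treated libraries lay above all vehicle libraries. The difference was 0.38 ± 0.14 at 4 µM (adjusted p = 0.392, limma) and 0.45 ± 0.14 at 6 µM (adjusted p = 0.148), with nearly the same consensus exon values, 0.37 and 0.46.

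GRN, the precursor of the granulins, had 102, 92.3 and 66.9 FPKM at 0 µM, 138, 131 and 91.5 FPKM at 4 µM, and 163, 140 and 108 FPKM at 6 µM. The difference at 6 µM was 0.65 ± 0.24 (adjusted p = 0.212, limma), and the same-numbered pairs gave 0.67, 0.60 and 0.69. GM2A, the activator that hands ganglioside GM2 to its hexosaminidase, had 11.6, 21.8 and 11.1 FPKM at 6 µM against 14.6, 16.5 and 10.8 FPKM at 0 µM. Its groups overlapped, and the difference was 0.04 ± 0.26.

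Membrane proteins had a median difference of 0.05 at 4 µM and 0.07 at 6 µM by summed FPKM, and of 0.24 and 0.11 by consensus exon value. LAMP1, a main coat protein of the lysosomal membrane, had 197, 207 and 145 FPKM at 0 µM, 191, 193 and 151 FPKM at 4 µM, and 169, 170 and 159 FPKM at 6 µM. These ranges overlapped, with a difference at 6 µM of -0.12 ± 0.17 (adjusted p = 0.736, limma), and of 0.06 ± 0.14 with the consensus exon value. LAMP2, the other main coat protein, differed by 0.10 ± 0.17 at 6 µM by summed FPKM and by -0.07 ± 0.14 by consensus exon value, and SCARB2, the receptor that brings glucocerebrosidase to the lysosome, by 0.03 ± 0.16 by summed FPKM.

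CD63, a tetraspanin of late endosomes, lysosomes and melanosomes, was the most abundant member by summed FPKM, and its libraries were scattered. By consensus exon value its mean over the 9 libraries was 286 FPKM, below the 509 FPKM of PSAP. It had 748, 213 and 701 FPKM at 0 µM, 1016, 834 and 639 FPKM at 4 µM, and 1295, 1322 and 621 FPKM at 6 µM. Replicate 2 at 0 µM was far below the other vehicle libraries, and without it the difference at 6 µM was 0.49 in place of 1.08 ± 0.50. Its consensus exon values, between 29.5% and 42.2% of the summed level by dose, were 371, 363 and 221 FPKM at 6 µM against 257, 205 and 239 FPKM at 0 µM, a difference of 0.41 ± 0.22 (adjusted p = 0.278, limma). MCOLN1, the lysosomal calcium channel, had 1 high library at 6 µM, with 30.9, 11.1 and 12.2 FPKM against 12.7, 11.1 and 11.2 FPKM at 0 µM. MCOLN1 had consensus exon values of 14.9, 11.1 and 12.2 FPKM at 6 µM against 12.7, 11.1 and 10.0 FPKM at 0 µM, and the difference was 0.16 ± 0.18 in place of 0.44 ± 0.39. CLN3, mutated in juvenile neuronal ceroid lipofuscinosis, had 1 high library at 0 µM, with 24.4, 27.4 and 21.2 FPKM at 6 µM against 66.0, 17.9 and 15.8 FPKM at 0 µM. By consensus exon value that library did not stand apart, with 22.2, 20.2 and 18.0 FPKM at 6 µM against 20.2, 11.9 and 14.3 FPKM at 0 µM, and the difference was 0.39 ± 0.20 in place of -0.14 ± 0.47. The groups of both genes overlapped with either value.

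**Figure D4:**
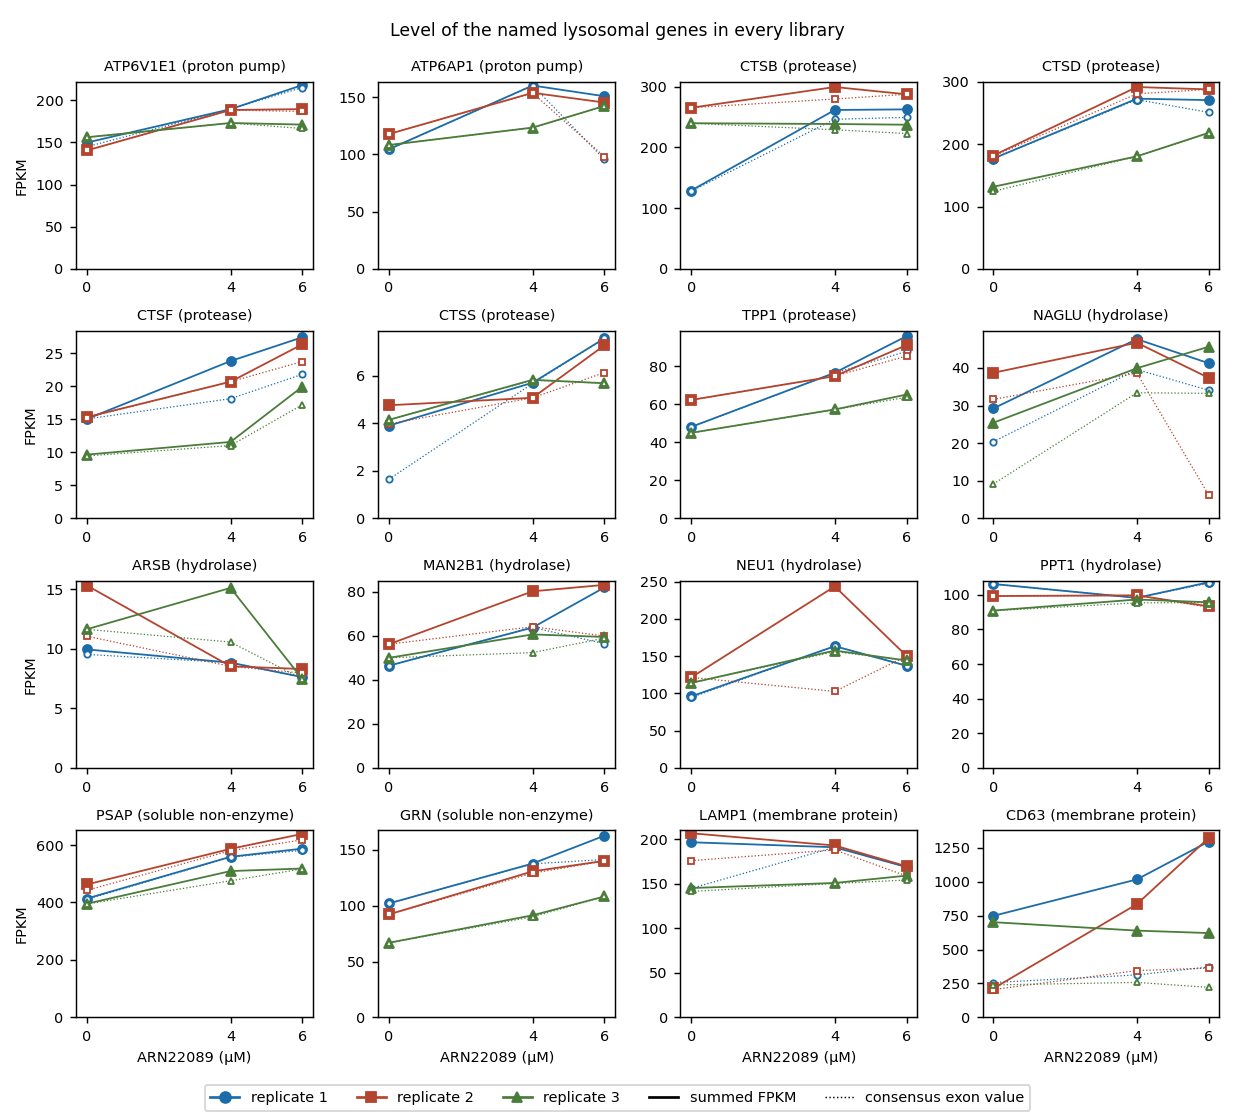
Level in FPKM (vertical axis, from 0) against ARN22089 dose for the 16 genes described by library, as summed FPKM (solid) and consensus exon value (dotted), with same-numbered libraries joined. CTSD, CTSF, TPP1 and GRN share a lower replicate 3 and are higher at 6 µM than at 0 µM in every same-numbered pair, PPT1 is flat, and CD63 and NAGLU have values that lie apart.

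At 6 µM against 4 µM, none of the 51 genes passed the adjusted threshold (lowest adjusted p = 0.954, limma), where 3 of 12345 genes did (0.0243%). At an unadjusted p below 0.05, 0 members were higher and 0 lower, where 1.73% and 2.95% of all genes were. The median difference was 0.02, against -0.03 for all genes, and 30 of the 51 were positive, against 44.4% of all genes. With 1 library left out the median ran from -0.01 to 0.08 and the positive members numbered 22 to 36. In this step CTSF had a difference of 0.42 and TPP1 of 0.26 by summed FPKM, and 0.35 and 0.18 by consensus exon value. NEU1 had -0.36 by summed FPKM and 0.06 by consensus exon value.

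Same-numbered libraries carry the same entry in the submitters' descriptions, and the fit was therefore repeated with the replicate number as a block. With the summed value the block called no member, where it called 0.0162% of all genes at 4 µM, 0.0324% at 6 µM and 0.0081% between both doses. With the consensus exon value and the block together, a combination chosen after the data were seen, 4 members were higher at 6 µM than at 0 µM, where 2.28% of 12234 genes were called higher and 5.55% in either direction. At 4 µM it called 0 members (0.0572% of all genes), and between both doses 0 (0.0409%). They were GRN (0.58 ± 0.10, adjusted p = 0.0336, limma), CTSD (0.66 ± 0.11, adjusted p = 0.0345), CTSF (0.64 ± 0.11, adjusted p = 0.0345) and TPP1 (0.60 ± 0.12, adjusted p = 0.0452). These calls rest on single libraries. With each library left out in turn, CTSD, CTSF and TPP1 passed in 0 of 9 fits, with adjusted p between 0.0519 and 0.168, and GRN passed in 1 of 9, that without replicate 1 at 0 µM. The 679 genes called in this fit became 664 without replicate 3 at 0 µM, 320 without replicate 1 at 0 µM, 125 without replicate 1 at 4 µM, and between 3 and 14 without any 1 of the other 6 libraries.

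Other genes of the lysosomal pathway, from lists of the textbook members, were tested in the same fits. None passed the adjusted threshold with the summed value at either dose. Of 13 other V-ATPase subunit and assembly genes measured, 7 were positive at 6 µM (median 0.05), and of 26 other lysosomal proteases and hydrolases 13 were (median -0.02). Of 21 other lysosomal membrane and transport genes, 16 were positive (median 0.20), and of 13 genes that sort enzymes to the lysosome 9 were (median 0.05). With the consensus exon value, 530 of 12234 genes (4.33%) passed at 6 µM against 0 µM. In the first 3 lists, 1 gene each passed, of 13, 25 and 21 measured. None passed of the 13 sorting genes or of 16 regulators and mTORC1 docking genes. ATP6V0D2, a V0 subunit isoform best known from osteoclasts and kidney, had 1.51, 3.85 and 2.85 FPKM at 6 µM against 0, 0.376 and 0.405 FPKM at 0 µM (adjusted p = 0.0295, limma). ASAH1, the acid ceramidase, had 65.0, 77.7 and 67.7 FPKM at 6 µM against 31.0, 49.1 and 35.2 FPKM at 0 µM (difference 0.87 ± 0.19, adjusted p = 0.0446, limma). SLC17A5, which exports sialic acid from the lysosome, had 14.9, 12.7 and 13.1 FPKM at 6 µM against 6.95, 9.00 and 10.0 FPKM at 0 µM (difference 0.60 ± 0.14, adjusted p = 0.0474, limma). All 3 rose in that fit, where 206 of all genes passed as higher and 324 as lower.

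Of the transcription factors that bind the E-box-like element, only TFEB, TFE3 and MITF are described here, and none of them passed the adjusted threshold. TFEB had 0.982, 1.86 and 1.47 FPKM at 0 µM, 1.62, 2.29 and 1.93 FPKM at 4 µM, and 1.59, 1.69 and 1.45 FPKM at 6 µM. TFE3 had a difference at 6 µM of 0.29 ± 0.22 (adjusted p = 0.514, limma) and MITF of 0.31 ± 0.25 (adjusted p = 0.55), and in both the libraries overlapped. Among the 16 regulators and mTORC1 docking genes measured, 13 were positive at 6 µM (median 0.20), and none passed the adjusted threshold.

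The melanoma label fits the markers, since all 8 melanoma markers listed were assembled. All 8 were positive at both doses, with a median of 0.72 at 4 µM and 0.74 at 6 µM. Their summed level ranged from 434 to 1430 FPKM at 0 µM, from 1264 to 2374 FPKM at 4 µM and from 1391 to 2061 FPKM at 6 µM, and the part of this in the lysosomal values was not tested. Of 5 fibroblast markers 3 were measured, with a summed list level of 9.61 to 31.6 FPKM at 0 µM, 14.4 to 31.2 FPKM at 4 µM and 15.3 to 26.1 FPKM at 6 µM. KRT14 alone was named of 4 keratinocyte markers, at no more than 2.27 FPKM. CD68 alone was named of 6 markers of macrophages and other blood cells, and PTPRC, CD14 and CD3E were not assembled under their names in any library. CD68 is itself a lysosomal membrane protein. By summed FPKM it was listed at 0 in 8 libraries and had 142 FPKM in replicate 3 at 4 µM. By consensus exon value it ranged from 44.0 to 64.8 FPKM at 0 µM, from 62.7 to 142 FPKM at 4 µM and from 54.1 to 239 FPKM at 6 µM. In the 8 libraries listed at 0, that value came from transcripts not named as CD68.

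Some members are less certain by position. Another protein-coding gene overlaps 12 of the 51, as CAP1 does PPT1, SLC26A1 does IDUA and RDH5 does CD63, and the sources used here do not give whether strand was kept. Pseudogenes named after the gene exist for 10 of the 51, among them 19 for GUSB, 7 for ATP6V1G1 and 6 for CTSL, and reads of near-identical copies may have been shared between them. ATP6V1E1 and LAMP1 are among these 10.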

How the data were processed

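RNA was measured in 9 libraries of WM3248 cells, 3 per dose, grouped by the treatment labels. The submitters' processing notes list Cufflinks 2.2.1, TopHat2 2.1 with Bowtie2 2.2.7, SAMtools 1.9, Trimmomatic and R 4.0.3. The deposited files are transcript assemblies made by the authors for each library alone, without gene names. Their FPKM values stand in a text attribute column beside coverage and confidence bounds. The notes name GRCh37, but of 2171 plus-strand introns on chromosome 20 only 8 (0.368%) have GT-AG ends there and 512 transcripts lie on scaffolds not in GRCh37. Coordinates are therefore taken as GRCh38.

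Of 193769 spliced transcripts, 186111 (96.05%) were named by same-strand overlap with a RefSeq gene and shared GENCODE intron lengths (Python 3.11.15, pandas 2.3.3). FPKM was summed per gene as deposited, with 0 where nothing was assembled, which can be a failed assembly. Sums of FPKM per library were 587999 to 689699 in 8 libraries and 1061112 in replicate 3 at 0 µM, where 2 transcripts held 38.75%. The 2 highest transcripts held 18.0 and 12.36% in replicates 1 and 2 at 0 µM, and 2.34 to 12.35% in the treated libraries. With named genes scaled to the same sum, the median difference of the members was 0.12 at 4 µM and 0.23 at 6 µM. Genes averaging 1 FPKM or more entered 1 limma 3.58.1 fit (R 4.3.3) of log2(FPKM + 1) over all 9 libraries, with a variance trend and 6 residual degrees of freedom, tested on simulated data. The pseudocount makes fold changes of low genes too small. P-values were adjusted by Benjamini-Hochberg at 0.05. The values have no read counts, so no counting intervals are given.

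Same-numbered libraries were taken as paired because their descriptions share an entry written like a day and month. Correlations of their deviations from the group means ran from -0.005 to 0.12 over 9 pairs, and those of other pairs from -0.09 to 0.014. Genes were described by library if they passed the adjusted threshold, had an unadjusted p below 0.05 at 6 µM at an average of 5 FPKM or more (up to 5 per class), were among the 2 most abundant of their class, or reversed between both values while at an unadjusted p below 0.05. Members and lists were chosen with earlier results of these data known. Alternatives were the consensus exon value, a pseudocount of 0.1, other filters, 2 rescalings, the replicate block, the 6 libraries of a comparison alone and each library left out.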

Additional observations from a re-analysis of the deposited data

How the results depend on the processing

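Every value here rests on separate assemblies of unknown depth in 3 libraries a dose. No member was called in any comparison under any alternative, except 4 at 6 µM against 0 µM with the consensus exon value and the replicate block together (GRN 0.58, TPP1 0.60, CTSF 0.64 and CTSD 0.66). The number of all genes called moved more. At 4 µM it was 11, and 7 with a mean of at least 5 FPKM, 2 with the replicate block and 7 with the consensus exon value and the block. At 6 µM it was 39, and 530 with the consensus exon value, 78 with a mean of at least 5 FPKM, 16 with named genes scaled to the same sum, 61 with median ratio scaling, 4 with the replicate block, 20 with the 6 libraries of the comparison and 679 with the consensus exon value and the block. Between 6 and 4 µM it was 3, and 6 with the consensus exon value, 7 without a filter, 1 with the replicate block and 5 with the consensus exon value and the block. With summed FPKM the block called no member in any comparison. With 1 library left out the counts ran from 6 to 28 at 4 µM, from 16 to 78 at 6 µM and from 2 to 14 between both doses. The class medians then ran, at 4 µM, from 0.10 to 0.31 for the pump and from 0.02 to 0.16 for membrane proteins, and at 6 µM from 0.11 to 0.37 for the pump, from 0.14 to 0.37 for hydrolases and from -0.00 to 0.22 for membrane proteins. The membrane protein median at 4 µM was 0.24 with the consensus exon value, with or without the block. LAMP1 changed sign at 4 µM with the consensus exon value (0.19, with or without the block) and with a library left out (from -0.18 to 0.09), and at 6 µM with the consensus exon value (0.06, with or without the block). The causes were not tested. No rescaling moved the median of all genes by more than 0.06 from 0, and between 36 and 43 members were positive under the 2 rescalings.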
